A study of Mus musculus with 12 samples.

Results

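The cytosolic ribosome is built from a large and a small subunit, and each subunit is made of ribosomal RNA and a fixed set of ribosomal proteins. The proteins whose genes are named Rpl and Rplp belong to the large subunit, and those named Rps, together with Rpsa, belong to the small subunit. The messenger RNAs of these genes mostly start with a C followed by a run of pyrimidines (a terminal oligopyrimidine, or TOP, start), through which growth signals of the mTORC1 pathway control their translation. The small intestine epithelium renews itself continually, and its crypts, where cells divide, carry a high demand for ribosomes.

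The cytosolic ribosomal protein genes were taken by name from the gene table, as the genes called Rpl or Rps followed by a number, Rplp0 to Rplp2 and Rpsa, leaving out the Rps6k kinases and the genes named as pseudogenes. This rule found 86 of 15855 genes, 49 with large subunit names and 37 with small subunit names. Of these, 76 encode standard ribosomal proteins, and the other 10 are paralogs or retrocopies (Rpl22l1, Rpl36al, Rpl7l1, Rpl37rt, Rps27l, Rps27rt, Rps3a2, Rps3a3 and Rps4l) or encode a protein that binds one (Rps19bp1). Rpl37rt and Rps4l are annotated as transcribed processed pseudogenes, and Rps3a2 and Rps3a3 as processed pseudogenes, though their names do not say so. Rpl23a was not analysed here, and Fau and Gnb2l1 (also called Rack1), which encode ribosomal components under other names, stand outside the rule. All 86 members passed the filter on low counts.

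RNA came from EpCAM+ epithelial cells sorted from the small intestine of C57BL6/J mice 24 h after surgery. The sham group (n = 7) had sham surgery, and the pMCAO group (n = 5) had permanent middle cerebral artery occlusion, a stroke model in which a main brain artery is closed and not reopened. The pMCAO group of the study's own analysis was larger, and the further sample was not analysed here. The study's methods give the mice as adult males, and no transgene or further treatment is named for either group. Each sample is labelled as its own biological replicate, and in bulk RNA fewer cells of a kind and less RNA per cell cannot be told apart.

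Total counts ranged from 7418730 to 31925579 per library. The titles number the libraries, and an earlier analysis of these data put them in 4 library blocks, which the labels do not name: libraries 58 to 61 (pMCAO 1 and sham 1 to 3), 62 to 65 (pMCAO 2 and 3, sham 4 and 5), 66 to 68 (pMCAO 4 and 5, sham 6) and 72 (sham 7 alone). That analysis derived the blocks from the authors' deposited fold changes of pMCAO against sham. Results by block below are therefore not independent of that comparison. Libraries 58 to 61 stood apart in the number of genes with a count, 13386 to 14712 against 15343 to 15766 in the other 8. Mitochondrial rRNA genes took 34.8% to 54.5% of their counts and 14.6% to 35.2% in the other 8, ranges that overlap. The epithelial markers Epcam, Krt8, Krt18, Krt19, Krt20, Vil1, Cdh1, Cdx2 and Fabp2 summed to between 8070 and 25566 CPM in every library, where CPM is the count scaled to the library's total after adjustment of that total by TMM. Markers of immune cells, 18 of 21 of them in the table, summed to 76.9 to 692 CPM in sham and 87.0 to 457 CPM in pMCAO. Of the stromal markers 1 of 10 was in the table (Pdgfrb), with 0.478 to 2.69 CPM in sham and 0.0800 to 3.16 CPM in pMCAO, of the endothelial markers 2 of 6, and of the neural markers 1 of 6. The part of these shares in the results below was not tested.

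The start of several members is shown here because a TOP start is the feature by which their messages are regulated together. RefSeq starts on GRCm38.p6 were found for 64 of the 86 members. In 14 of the 64 the first base was C and the first 5 bases were all pyrimidines (21.9%; 7 of 38 large and 7 of 26 small subunit genes). Counted over start entries, 18.7% of the 75 entries of members and 2.51% of all 32851 entries had such a start. The search was made on the gene's strand at the annotated start only. A start annotated a few bases away is missed by it. The sequences run 5′ to 3′ over the 15 bases before the annotated start and the first 15 bases of the transcript, and capitals mark the run of pyrimidines that opens the transcript.
Rps6 (chr4:86857353-86857382, minus strand): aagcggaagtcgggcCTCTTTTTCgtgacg
Rpl35 (chr2:39005117-39005146, minus strand): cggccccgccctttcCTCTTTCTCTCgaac
Rps18 (chr17:33955651-33955680, minus strand): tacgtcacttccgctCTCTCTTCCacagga
Rplp2 (chr7:141447636-141447665, plus strand): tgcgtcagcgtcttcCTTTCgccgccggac
Rps27 (chr3:90213634-90213663, minus strand): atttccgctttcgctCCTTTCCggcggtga
Rps27rt (chr9:114982725-114982754, minus strand): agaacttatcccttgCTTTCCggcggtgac
Rpl4 (chr9:64173372-64173401, plus strand): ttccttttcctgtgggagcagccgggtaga
Rplp0 (chr5:115559452-115559481, plus strand): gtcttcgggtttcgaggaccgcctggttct
The annotated starts of Rpl4 and Rplp0 opened with a purine, so no base of theirs is in capitals. Rps27 and its retrocopy Rps27rt shared the bases that follow the tract, although they lie on different chromosomes.

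Ribosomal protein genes made up a small share of these libraries, and the share varied more between libraries than between groups. In sham it was 0.0521%, 0.0498% and 0.0375% of counts in replicates 1 to 3, 0.143%, 0.151% and 0.170% in replicates 4 to 6 and 0.310% in replicate 7. In pMCAO it was 0.109%, 0.299%, 0.282%, 0.154% and 0.190% in replicates 1 to 5. The 95% Wilson intervals, which cover counting error only, were 0.0361% to 0.0389% for the lowest share, that of sham 3, and 0.307% to 0.313% for the highest, that of sham 7. Sham 1 to 3 held the lowest shares and sham 7 the highest of all 12, and the 5 pMCAO libraries lay between them. The sham mean was 0.131% ± 0.0964 (SD, n = 7) and the pMCAO mean 0.207% ± 0.0817 (SD, n = 5), and the groups overlapped. Within libraries 58 to 61 pMCAO 1 was above its 3 sham libraries, within 62 to 65 pMCAO 2 and 3 were above sham 4 and 5, and within 66 to 68 sham 6 lay between pMCAO 4 and 5.

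**Figure D1:**
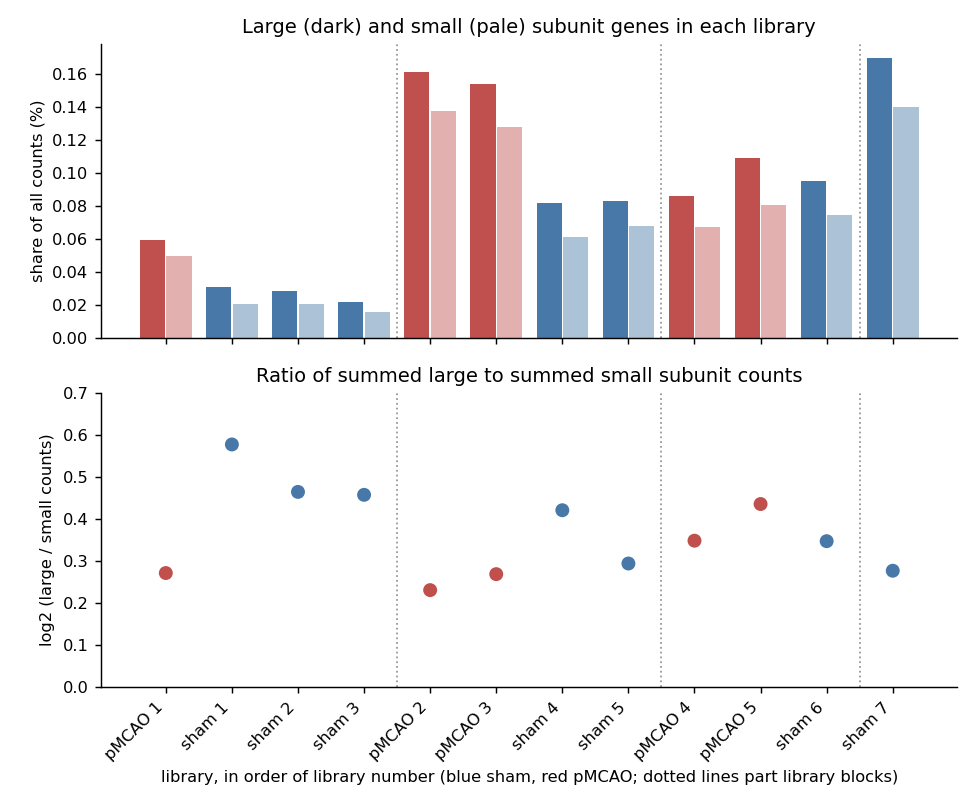
Upper plot: percent of all counts on large (dark) and small (pale) subunit genes in each library, in library order, with sham in blue and pMCAO in red. Lower plot: log2 of summed large over summed small subunit counts, which ran from 0.23 to 0.58 with overlapping groups; dotted lines part the library blocks.

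The large and small subunit genes moved together from library to library. Large subunit genes took from 0.0217% of counts in sham 3 to 0.170% in sham 7, and small subunit genes from 0.0158% to 0.140% in the same libraries. The log2 ratio of summed large to summed small subunit counts was 0.58, 0.46, 0.46, 0.42, 0.29, 0.35 and 0.28 in sham 1 to 7. It was 0.27, 0.23, 0.27, 0.35 and 0.43 in pMCAO 1 to 5. Sham had a mean ratio of 0.40 ± 0.11 (SD, n = 7) and pMCAO one of 0.31 ± 0.0817 (SD, n = 5), a difference of -0.09, smaller than the SD of the sham libraries. The 3 highest ratios were those of sham 1 to 3, which also had the lowest share of ribosomal protein counts. Within library blocks the difference was -0.23 in libraries 58 to 61, -0.11 in 62 to 65 and 0.04 in 66 to 68, so its direction was not shared by the blocks. Without libraries 58 to 61 the mean ratio was 0.33 ± 0.065 in sham (SD, n = 4) and 0.32 ± 0.091 in pMCAO (SD, n = 4). Taken over the 76 standard proteins alone, sham had a ratio of 0.60 ± 0.14 (SD, n = 7) and pMCAO one of 0.49 ± 0.0947 (SD, n = 5). Summed counts are weighted by the most abundant genes, with Rpl4 alone at 10.1% of member counts. The mean log2 CPM of large minus that of small subunit genes was below 0 in all 12 libraries. It was -0.20 ± 0.14 in sham (SD, n = 7) and -0.32 ± 0.12 in pMCAO (SD, n = 5).

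The question put to each member was whether its level differed 24 h after stroke. By limma-voom on the group alone, 0 of the 86 members passed an adjusted p of 0.05, as did 0% of the 14462 genes tested, and the smallest adjusted p of a member was 0.510. edgeR's quasi-likelihood test also called 0 members (0% of all genes tested), as did DESeq2 (0.581%). At an unadjusted p under 0.05, limma-voom put 10 members higher in pMCAO (11.6%, against 4.66% of all genes tested) and 0 lower (against 3.77%), edgeR put 3 higher (3.49%, against 3.04%) and DESeq2 2 (2.33%, against 3.29%), shares near those of all genes. The 10 comprised 3 of 49 large and 7 of 37 small subunit genes. The fold change was above 0 for 77 of the 86 (89.5%, against 55.2% of all genes tested), 45 of 49 large and 32 of 37 small subunit genes. The median log2 fold change was 0.55 over the members, 0.47 over large and 0.58 over small subunit genes, beside 0.06 over all genes. No member had all pMCAO libraries above all sham libraries, which 0.311% of genes did, or all below, which 0.194% did.

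With the library block as a term in the same limma-voom model, 0 members passed an adjusted p of 0.05 (against 0.477% of all genes tested), with a smallest adjusted p of 0.0769 (Rpl4). At an unadjusted p under 0.05, 43 members were higher in pMCAO (50%, against 6.58% of all genes tested) and 0 were lower (against 6.17%). These were 20 of 49 large and 23 of 37 small subunit genes. As the blocks were derived from the deposited fold changes, such counts are not independent of the comparison of pMCAO with sham. Members also moved together from library to library, so their number is not a number of separate results. The fold change was above 0 for 76 members (88.4%, against 51.3% of all genes tested). The median log2 fold change over the members hardly moved, at 0.54 (large 0.50, small 0.61), beside 0.01 over all genes, while the median SE fell from 0.38 to 0.26. DESeq2 with the same term called 7 members higher (8.14%, against 0.595% of all genes tested): Rpl13a, Rplp1, Rpl4, Rps24, Rps3a1, Rpsa and Rps20, with log2 fold changes of 0.66 to 1.04 and adjusted p of 0.0248 to 0.0450. Those 7 are named because the count is small, after their values were seen. Sham 7 forms a block alone, so with the block term it adds nothing to the difference between the groups. Leaving it out of the block model, limma-voom again counted 43 members at an unadjusted p under 0.05. Without sham 7, the model without the block counted 44 members at an unadjusted p under 0.05 (against 11.8% of all genes tested). Without pMCAO 3, the model without the block counted 0 (against 7.71%).

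**Figure D2:**
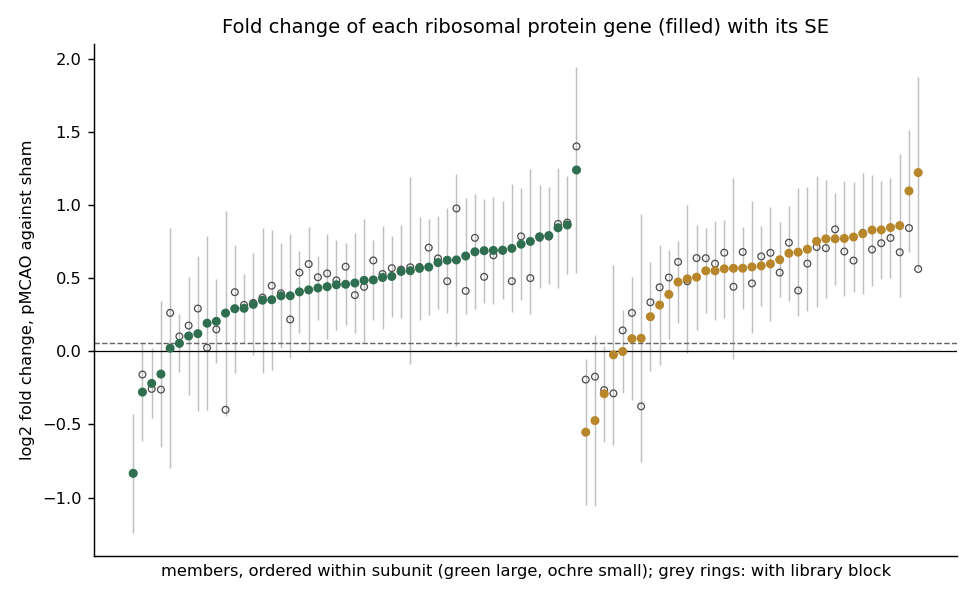
Log2 fold change of pMCAO against sham for each of the 86 genes, ordered within the large (green) and small (ochre) subunit, with its SE (grey bars); rings give the value with the library block in the model, the dashed line the median of all genes (0.06). Of the filled points, 77 lie above 0, and the SE of most of them reaches 0.3 or more.

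The direction of the median was shared by the 3 blocks that held both groups, and its size was largest in the first. The blocks were derived from the deposited fold changes of pMCAO against sham, so this sharing is not independent of that comparison. Libraries 58 to 61 held 1 pMCAO library, and 66 to 68 held 1 sham library. Members moved together by library, so counts of members below are not counts of separate results. The median difference in log2 CPM, pMCAO minus sham, was 1.00 over the members in libraries 58 to 61 (1 pMCAO, 3 sham), 0.47 in 62 to 65 (2 and 2) and 0.31 in 66 to 68 (2 and 1), beside 0.07, 0.04 and -0.02 over all genes. The small subunit median was above the large in each, with 1.04 and 0.88, 0.51 and 0.41, and 0.37 and 0.24. Members were higher in pMCAO in 77, 73 and 65 of 86 cases, against 54.6%, 53.1% and 48.8% of all genes. In all 3 blocks at once 56 members were higher (65.1%, against 17.2% of all genes tested), 30 of 49 large and 26 of 37 small. Leaving out libraries 58 to 61 the median over the members was 0.29, and 3 members were higher at an unadjusted p under 0.05 (3.49%, against 3.99% of all genes tested), a share no larger than that of all genes.

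**Figure D3:**
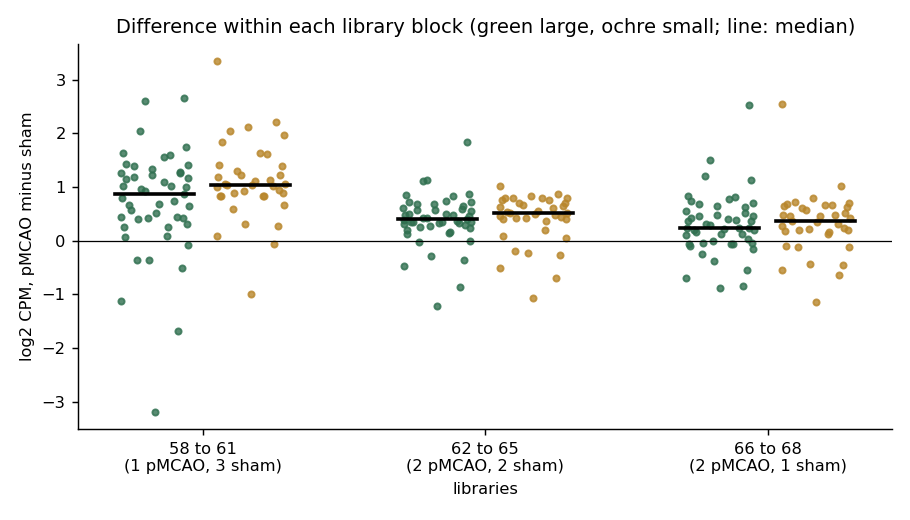
Difference in log2 CPM, pMCAO minus sham, of each member within the 3 library blocks that held both groups (green large, ochre small subunit; black line the median). The medians lie above 0 in all 3 blocks and are highest in libraries 58 to 61.

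The members also shared an order of libraries that the groups do not give. In 74 of 86 members (86.0%, against 42.2% of all genes) the lowest of the 12 libraries was sham 1, 2 or 3, and in 46 (53.5%, against 13% of all genes) the highest was sham 7. All of sham 1 to 3 lay below the other 9 libraries in 43 members (50%, against 7.33% of all genes), 22 large and 21 small. Libraries 58 to 61, with pMCAO 1 included, all lay below the later 8 in 15 members (17.4%, against 9.4% of all genes) and all above in 0 (against 5.46%). With counts of mitochondrial genes and nuclear rRNA loci taken out of the total, members made up 0.103%, 0.1195% and 0.1045% in sham 1 to 3 and 0.528% in sham 7, so the same libraries stayed at the ends.

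The member with the smallest unadjusted p was Rps7, a small subunit protein, on chr12:28630854-28635953 of GRCm38. In pMCAO 1 to 5 it had 2.48, 4.46, 8.35, 4.24 and 3.51 CPM, and in sham 1.04 (lowest), 2.31 (median) and 5.19 (highest). Only pMCAO 3 was above the highest sham library. On the log2 scale pMCAO was higher by 1.10 ± 0.42 (SE), with a limma-voom adjusted p of 0.510. Reads of Rps7 are hard to place, since 84.2% of its 100-base windows also occur in other genes.

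Rps25, a small subunit protein (chr9:44407139-44410427), had 21.8, 21.3, 27.3, 16.4 and 21.3 CPM in pMCAO and 3.90 (lowest), 13.7 (median) and 24.7 (highest) in sham. All pMCAO libraries were above every sham library but sham 7. Its log2 fold change was 0.83 ± 0.34 (SE; limma-voom adjusted p = 0.526). Rps26, another small subunit protein, had 21.2, 29.6, 29.8, 21.8 and 30.2 CPM in pMCAO against 8.92 (lowest), 18.5 (median) and 24.9 (highest) in sham, so that sham 5 and 7 reached into the pMCAO range.

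Rps19, the protein whose human gene is the one most often mutated in Diamond-Blackfan anaemia, had 8.46, 12.3, 12.3, 7.60 and 8.79 CPM in pMCAO and 2.41 (lowest), 5.20 (median) and 13.6 (highest) in sham. Its log2 fold change was 0.85 ± 0.34 (SE; limma-voom adjusted p = 0.526), and its differences in log2 CPM within the 3 blocks were 1.64, 0.54 and 0.64.

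Of the large subunit, Rpl30 (chr15:34440505-34443640) had 5.30, 8.56, 8.95, 5.52 and 7.85 CPM in pMCAO and 0.724 (lowest), 4.30 (median) and 7.16 (highest) in sham. Rpl6 (chr5:121204481-121209241) had 9.997, 16.1, 18.5, 11.9 and 12.4 CPM in pMCAO and 3.27 (lowest), 6.84 (median) and 19.2 (highest) in sham, where sham 7 alone exceeded all pMCAO libraries. The log2 fold changes were 0.86 ± 0.34 and 0.79 ± 0.33 (SE), with limma-voom adjusted p of 0.512 and 0.546. That of Rpl30 rested in part on sham 3, at 0.724 CPM, where the next lowest sham library, sham 5, had 3.24 CPM. Rpl13 and Rps28 had log2 fold changes of 0.78 ± 0.35 and 0.83 ± 0.38 (SE; limma-voom adjusted p = 0.581 and 0.583), and each rested in part on 1 low sham library, sham 3 at 0.724 CPM for Rpl13 and sham 2 at 0.622 CPM for Rps28.

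**Figure D4:**
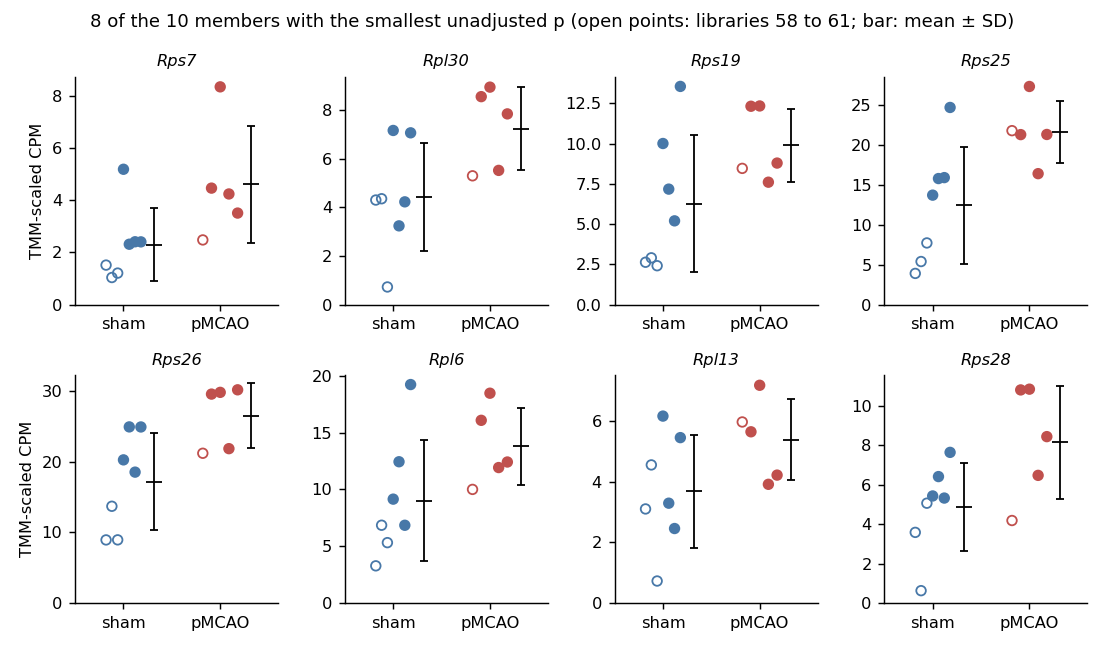
TMM-scaled CPM of 8 of the 10 members with the smallest unadjusted p, in sham (blue) and pMCAO (red) libraries, with the mean ± SD; open points are libraries 58 to 61. Groups overlap in all 8 panels, and sham 1 to 3 are low in most.

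Among the members chosen for their role, the stalk proteins Rplp0, Rplp1 and Rplp2 form the part of the large subunit that recruits elongation factors. Rplp0 had 48.7, 81.6, 66.5, 47.2 and 71.97 CPM in pMCAO and 15.2 (lowest), 36.1 (median) and 87.4 (highest) in sham. Rplp1 had 28.9, 52.2, 56.5, 26.8 and 44.6 CPM in pMCAO and 8.69 (lowest), 25.8 (median) and 77.1 (highest) in sham. Both were lowest in sham 1 to 3 and highest in sham 7. The log2 fold changes of Rplp0, Rplp1 and Rplp2 were 0.69 ± 0.37, 0.68 ± 0.39 and 0.61 ± 0.32 (SE; limma-voom adjusted p = 0.626, 0.645 and 0.612), so the 3 stalk genes had near-equal values. Rpsa, the small subunit protein first described as a laminin receptor, had 28.2, 44.2, 40.4, 26.4 and 29.2 CPM in pMCAO and 10.4 (lowest), 18.1 (median) and 58.6 (highest) in sham, a log2 fold change of 0.57 ± 0.34 (SE; limma-voom adjusted p = 0.649).

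Rpl5 and Rpl11, which bind 5S rRNA and can hold back Mdm2 when ribosome assembly fails, gave values near 0 at low counts. Their log2 fold changes were 0.19 ± 0.60 and 0.29 ± 0.44 (SE; limma-voom adjusted p = 0.946 and 0.873). Rps6, the target of S6 kinase, was listed with 0 counts in sham 3, where 3 counts would be 0.404 CPM of unscaled total, and had 0.513 to 3.74 CPM in pMCAO. Its log2 fold change was -0.02 ± 0.62 (SE; limma-voom adjusted p = 0.994). Rps27a, made as a fusion with ubiquitin, and Rpl3, next to the peptidyl transferase centre, had values of 0.09 ± 0.85 and 0.11 ± 0.40 (SE; limma-voom adjusted p = 0.982 and 0.957). The SEs of Rpl5, Rps6 and Rps27a were larger than the median fold change of the members, so a difference of that size was not detectable for them. Of their 100-base windows 100%, 87.6% and 81.6% also occur in other genes. Whether depth or the placing of reads kept their counts low was not tested. Rpl28, singled out after its values were seen, had the lowest fold change of all members at -0.83 ± 0.41 (SE; limma-voom adjusted p = 0.602).

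Levels between genes are compared per kilobase of the annotated transcript with the longest coding sequence. For some members that transcript is much longer than its coding sequence, which lowers the value. It has 3706 bases for 360 coding in Rps20 (40.6 CPM, 11.0 CPM per kb) and 2045 for 894 in Rpl5. The ranks and the range below therefore depend in part on the transcript chosen. The mean over the 12 libraries ran from 0.840 CPM per kb for Rpl5 to 188 for Rps27rt, a 224-fold range, with a median of 13.1 (large 11.7, small 16.99). A ribosome holds its standard proteins in equal amounts, apart from the stalk proteins Rplp1 and Rplp2. Among the 5 highest members were Rps27rt (188 CPM per kb), Rpl41 (175), Rpl4 (93.5) and Rpl32 (74.2), and the 5 lowest were Rps16 (1.55), Rps23 (1.46), Rpl24 (1.26), Rpl12 (1.11) and Rpl5 (0.840). Within sham the SD over libraries was 82.8 about a mean of 161 for Rps27rt and 72.7 about 156 for Rpl41. Both genes were read in the same libraries, and their difference within libraries was not tested.

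The level of a member went with how much of its sequence other genes hold. Each coding sequence, with 50 bases on either side, was read in windows of 100 bases, the read length, and searched in the transcripts of all other genes. The 17 members with under 25% shared windows had a median level of 36.1 CPM per kb, the 19 with 25% to 50% had 26.1, the 22 with 50% to 75% had 12.3 and the 28 with over 75% had 3.58. Spearman's rho between share and level was -0.57 over the 86 members, given as a description because the members share libraries and copies. In 8 members no window was found elsewhere, and in 2, Rpl5 and Rps27rt, every window was.

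Pseudogene copies of the members carried many counts. The table held 142 pseudogenes that share windows with a member, and each was assigned to the member with which it shares most. They summed to 0.0276% to 0.227% of counts per library, or 0.647 to 0.753 of the members' own counts. In 34 members the copies held more counts than the member itself. Rps29, a small subunit protein (chr12:69157722-69159186), stood at 1.30 ± 0.536 CPM in sham (SD, n = 7) and at 0.961 ± 0.721 CPM in pMCAO (SD, n = 5), while its copy Gm14303 (chr2:172509521-172509691) held means of 49.96 and 68.4 CPM. The 171 coding bases of Rps29 and Gm14303 differ at 0 positions. Rpl5 and its copy Gm15500 (chr7:114705217-114706235) likewise differ at 0 of 894 coding bases, with means over all libraries of 33.9 CPM on the copy. Rps16-ps2 held a mean of 42.1 CPM, Rpl31-ps8 38.2, Rpl28-ps1 36.1 and Rps6-ps4 20.9. How the authors' counting treated reads that fit several places is not given in the sources used here, so the counts of these members and copies are uncertain as to their source gene.

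**Figure D5:**
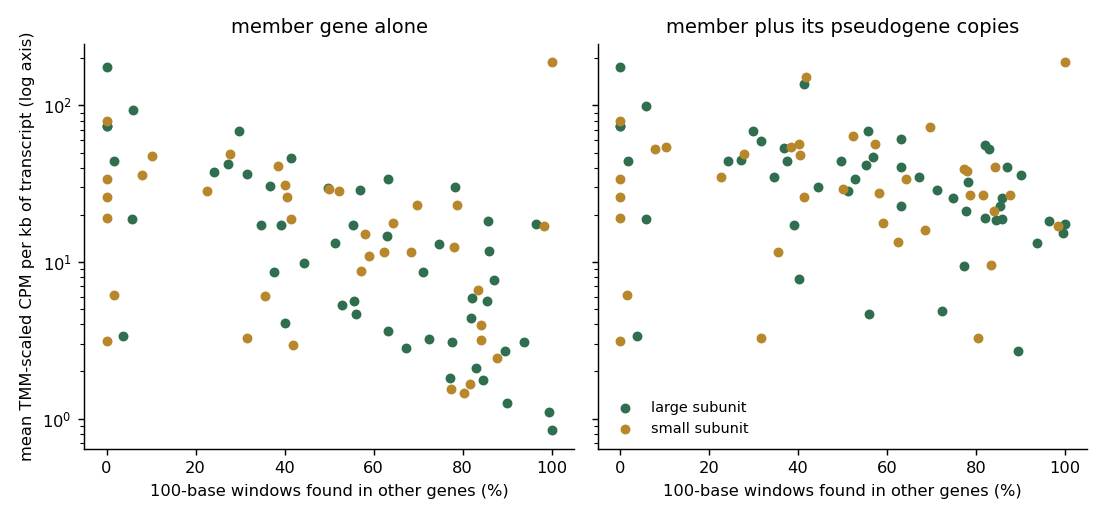
Mean TMM-scaled CPM per kilobase (log axis) of each member against the percent of its 100-base windows found in other genes, for the member alone (left) and for the member with its assigned pseudogene copies (right). On the left the median falls from 36.1 to 3.58 CPM per kb from the lowest to the highest step of sharing; on the right it is 44.3 and 21.9.

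Adding the copies to their members narrowed the range of levels. The highest level was then 69.8 times the lowest, the SD of log2 levels over the members went from 1.79 to 1.30, and Spearman's rho with the shared windows was -0.30. The median level became 33.9 CPM per kb for large and 29.4 for small subunit genes, which reversed their order. Tested as sums of a member and its copies, 83 of 86 had a fold change above 0 (96.5%, against 55.3% of the 14340 genes tested), and the median was 0.54 (large 0.49, small 0.58). By limma-voom 8 were higher at an unadjusted p under 0.05 (9.30%, against 4.64%). With the library block, 84 were above 0 (97.7%, against 51.3%), and 58 were higher at an unadjusted p under 0.05 (67.4%, against 6.55%). In that model 0 passed the adjusted p of 0.05 (against 0.481%), and the smallest adjusted p was 0.0610. The value of Rps6 with its copies was 0.55, where Rps6 alone gave -0.02. This way of counting was chosen after seeing the data, and its counts with the block carry the limit of the blocks given above.

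The Rps27 family shows how far paralogs can be told apart. Rps27 and its intronless copy Rps27rt (chr9:114982366-114982739) do not differ at any of the 255 coding bases, while Rps27l (chr9:66946086-66949516), a p53 target, differs from Rps27 at 61. The first 60 coding bases are printed from GENCODE M21, with the bases that differ from Rps27 in capitals.
Rps27: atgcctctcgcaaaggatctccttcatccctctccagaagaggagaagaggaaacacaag
Rps27rt: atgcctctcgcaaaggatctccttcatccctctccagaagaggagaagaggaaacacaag
Rps27l: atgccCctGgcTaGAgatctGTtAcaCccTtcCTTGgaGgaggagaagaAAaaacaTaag
Rps27rt had 98.2, 85.7, 92.0, 62.2 and 86.2 CPM in pMCAO and 30.6 (lowest), 60.6 (median) and 124 (highest) in sham. Rps27 itself (chr3:90212522-90213651) had 6.41, 5.35, 5.74, 1.92 and 3.51 CPM in pMCAO and 4.098 (lowest), 6.42 (median) and 13.99 (highest) in sham. Per kilobase that is 161 ± 82.8 against 19.6 ± 9.81 (SD, n = 7) in sham. The log2 fold changes were 0.57 ± 0.28 for Rps27rt, -0.29 ± 0.33 for Rps27 and 0.00 ± 0.29 for Rps27l (SE; limma-voom adjusted p = 0.602, 0.822 and 1.00). As the first 2 cannot be told apart by their coding bases, the split of counts between them is uncertain, and no direction can be given to either alone.

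Of the other paralogs and retrocopies, Rpl22l1 had a level of 29.8 CPM per kb beside 73.7 for Rpl22, and Rpl36al 30.2 beside 1.76 for Rpl36a. Rpl7l1 had 3.38 beside 36.6 for Rpl7, and Rps4l 6.14 beside 41.1 for Rps4x. Rps3a2 and Rps3a3 had 23.2 and 3.26 beside 29.4 for Rps3a1. Their log2 fold changes were 0.46 ± 0.28 for Rpl22l1 and 0.57 ± 0.35 for Rpl22, 0.65 ± 0.40 for Rpl36al, 0.42 ± 0.43 for Rpl7l1, 0.24 ± 0.37 for Rps4l and 0.86 ± 0.49 for Rps4x (SE), none past the test by limma-voom. Rpl36a, at 0.900 ± 0.824 CPM (SD, n = 7) in sham, was too low for its value of 0.26 ± 0.70 (SE) to say anything of direction. Rpl39 and Rpl10, on the X chromosome, had log2 fold changes of 0.69 ± 0.36 and -0.22 ± 0.24 (SE).

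The other components of the ribosome and of its supply line were counted from lists chosen with earlier results of these data known. Gnb2l1 had a log2 fold change of 0.43 ± 0.33 and Fau of 0.09 ± 0.32 (SE; limma-voom adjusted p = 0.731 and 0.953). Pseudogenes with ribosomal protein names had values like those of the members, with a median of 0.60 over 61 tested genes, of which 6 were higher (9.84%, against 4.66% of all genes tested) and 1 lower at an unadjusted p under 0.05. Other TOP transcripts gave a median of 0.24 over 22 genes. Of these 2 were higher at an unadjusted p under 0.05 by limma-voom (9.09%), Snhg6 (2.80 ± 0.86) and Eif4b (0.47 ± 0.22), an initiation factor. Snhg6 was low, at 0.452 ± 0.512 CPM in sham (SD, n = 7) and 1.96 ± 1.35 CPM in pMCAO (SD, n = 5). With the library block 6 were higher (27.3%, against 6.58% of all genes tested). Eef1a1, the elongation factor that brings tRNA to the ribosome, had 0.67 ± 0.34 (SE; limma-voom adjusted p = 0.603), and 0.68 ± 0.15 with an adjusted p of 0.0599 in the block model.

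Ribosome assembly factors gave a median log2 fold change of 0.58 over 48 tested genes, and 3 were higher at an unadjusted p under 0.05 by limma-voom (6.25%, against 4.66% of all genes tested), Pes1 (0.87 ± 0.28), Ddx21 (0.99 ± 0.43) and Nhp2 (1.87 ± 0.85). Regulators of translation gave a median of 0.10 over 28 genes, of which 2 were higher (7.14%). These were Myc (2.01 ± 0.70), a driver of ribosome production, and Eif4ebp2 (0.50 ± 0.20), which holds back cap-dependent initiation. Nhp2 and Myc were low, with means of 1.24 and 0.979 CPM in sham and 2.17 and 2.94 CPM in pMCAO. The proteins of the mitochondrial ribosome gave a median of 0.21 over 77 genes, with 5 higher (6.49%), among them Mrpl20 (0.82 ± 0.27) and Mrpl12 (0.90 ± 0.30). These 3 shares were close to that of all genes, so the named genes are given as values only. By sign, 39 of 48 assembly factors, 17 of 28 regulators and 59 of 77 mitochondrial ribosome genes were above 0, against 55.2% of all genes tested. With the library block, 12.5% of assembly factors were higher at an unadjusted p under 0.05 by limma-voom, and 1 was lower. For regulators and mitochondrial ribosome genes the shares higher were 7.14% and 7.79%, against 6.58% of all genes tested. 0 genes of these lists passed an adjusted p of 0.05 by limma-voom with or without the block. Crypt markers gave a median of 0.25 over 17 genes and villus enterocyte markers 0.32 over 14, of which 1 (5.88%) and 5 (35.7%) were higher at an unadjusted p under 0.05. The villus gene Sis, a disaccharidase, passed with the block, at 0.74 ± 0.14 (SE; limma-voom adjusted p = 0.0337). Immune markers, with a median of 0.52 over 17 genes, 0 of them past an unadjusted p under 0.05, stood near the median of the members. With the library block their median was 0.60, and 4 of the 17 were higher at an unadjusted p under 0.05 by limma-voom (23.5%, against 6.58% of all genes tested). The part of immune transcripts in the members' values was not tested.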

How the data were processed

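RNA of 7 sham and 5 pMCAO samples was analysed from 1 table of 15855 genes. Per the labels and the study's methods, 2.0 ng of total RNA went into each library after ribosomal RNA was cleaved, and paired-end reads of 100 base pairs were aligned by the authors to GRCm38 with STAR and assigned to genes with featureCounts, giving the deposited counts. The deposited CPM columns scale those counts to each library's total, and were not needed here. The deposited log2 columns (fold change, average expression) and p-value columns hold the authors' own comparison. They were not used directly, but the library blocks that an earlier analysis derived from the fold changes entered the block models. Whether counting used strand, and how reads fitting several places were treated, is not given in the sources used here; 38 of the 86 members overlap exons of another gene.

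Genes were kept by filterByExpr (minimum count 10; 14462 kept, 1393 removed), scaled by TMM and tested with limma-voom (R 4.3.3, edgeR 4.0.16, limma 3.58.1, DESeq2 1.42.0) on the group alone, with Benjamini-Hochberg adjustment over all genes tested. The thresholds of the study's methods, an adjusted p of 0.05 and an absolute log2 fold change of 1, gave the same count as the adjusted p alone. The study corrected for the day of collection, which the labels do not give; the 4 library blocks used beside the main model come from an earlier analysis of these data, which derived them from the authors' deposited fold changes. CPM of genes is TMM-scaled, and log2 CPM has a prior count of 2. Positions and lengths come from GENCODE M21 and starts from RefSeq, both on GRCm38. On simulated data, with 100 genes changed at each size among 14462, 51% were recovered at a log2 fold of 2 and 70% at 3. Smaller changes, such as the members' median of 0.55, and differences between library blocks were not simulated. How often changes of that size would be found is therefore not known. No 2 libraries of the same group agreed within sampling noise. The named members are the 10 with the smallest unadjusted p, the 5 highest and 5 lowest levels, members with a set role, paralogs with their partners, and up to 3 genes of each list by p; some genes that the rule names are not reported here. The members and lists were chosen with earlier results of these data known. Alternatives were edgeR, DESeq2, limma-trend, sample weights, other scalings, no filter, block terms, a replicate block, and each library or libraries 58 to 61 left out.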

Additional observations from a re-analysis of the deposited data

Results flagged for a closer look

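In 9 of 98 groups of values tested, a library lay far from the others of its group, where chance gives about 4.9. Values of genes are log2 CPM. In sham 3, Rpl24 was at -3.30, against -0.98 to 0.37 in the other 6 sham libraries, Rpl30 at -0.28 against 1.74 to 2.86, and Rps6 at -3.30 against 0.50 to 2.51, while Rps27 was high at 3.82 against 2.07 to 2.80. Rpl24 and Rps6 had 0 counts in sham 3. In sham 2, Rps28 was at -0.47 against 1.88 to 2.95, and Rps3a3 at -1.70 against 0.90 to 2.48. Of counts outside mitochondrial genes and rRNA loci, members took 0.528% in sham 7, against 0.103% to 0.281% in the other sham libraries. Counts of pseudogene copies were 0.647 of those of members in sham 1 and 0.731 to 0.753 in the other sham libraries. In pMCAO 1, 85 members were detected, against 86 in each of the other 4 pMCAO libraries, as Rpl15 had 0 counts there.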

How the results depend on the processing

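The median log2 fold change of members, and of each subunit, and the ratio of large to small subunit counts kept their direction in every refit run and moved by less than 1 SD between libraries. That SD was 0.52 for the median of members and 0.097 for the ratio. These are near the size of the values themselves, so staying within 1 SD says little about how stable their size is. Within libraries 66 to 68 alone the ratio's difference was 0.04, against -0.09 over all libraries. Leaving out each library in turn, without or with the library block, gave 0 to 1 members past an adjusted p of 0.05 and 0 to 44 with an unadjusted p under 0.05. That count was 10 by limma-voom on the group alone, 3 with edgeR, 2 with DESeq2, 19 with total counts as the scale, 43 with the library block and 3 without libraries 58 to 61. Beside the library block, chosen after seeing the data, it was 37 with edgeR, 38 with DESeq2 (7 past an adjusted p of 0.05), 45 with total counts, 42 without mitochondrial genes and rRNA loci, 30 without libraries 58 to 61 and 58 with copies added. The cause was not tested. Total counts moved the median of all genes to 0.35, and that of members to 0.89.

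Deviations of same-numbered samples from their group means had correlations of mixed sign (0.40, -0.24, -0.16, 0.16 and 0.08 for numbers 1 to 5). They gave no sign of a pairing by number, but with 1 pair per number they cannot exclude one. A replicate block gave 30 members with an unadjusted p under 0.05, and the same 10 samples without the block 40.

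Of the named members, 9 changed sign under some alternative, none of them past the test. Rpl3 was -0.19 with edgeR, -0.20 with DESeq2, -0.21 with limma-trend and -0.10 with the replicate block. Rpl36a was -0.23 (edgeR), -0.24 (DESeq2), -0.40 (library block), -0.18 (early or later libraries), -0.14 (without libraries 58 to 61) and -0.20 (replicate block). Rpl5 was -0.18 (edgeR), -0.20 (DESeq2), -0.27 (early or later) and -0.38 (without libraries 58 to 61). Rps27a was -0.12 (sample weights), -0.38 (library block), -0.040 (early or later) and -0.84 (without libraries 58 to 61). Rps27l was 0.020 (edgeR), 0.0021 (DESeq2), 0.14 (limma-trend), 0.042 (sample weights), 0.37 (total counts), 0.0039 (no filter), 0.14 (library block), 0.37 (replicate block) and 0.0022 (copies added). Rps6 was 0.064 (sample weights), 0.18 (total counts), 0.13 (without libraries 58 to 61) and 0.55 (copies added). Rpl10 was 0.058 with total counts. Rpl41 and Rps23, at 0.41 and 0.57 over all libraries and so not near 0, were -0.086 and -0.013 without libraries 58 to 61. Leaving out single libraries gave -0.24 to 0.34 for Rpl3, -0.14 to 0.61 for Rpl36a, -0.14 to 0.51 for Rpl5, -0.33 to 0.54 for Rps27a, -0.084 to 0.21 for Rps27l and -0.46 to 0.19 for Rps6. Low counts limit the members under 3 CPM most, 20 of the 86. Among these, Rpl5, Rpl11, Rpl12, Rpl24 and Rps16 had more counts on their pseudogene copies than on the member. The parts of depth and of read placing in this were not tested.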
